A study of Bos taurus with 2 samples.

Results

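The collagens and the other genes of the fibroblast matrix were examined in the muzzles of 2 HanWoo cows, a light one and a dark one. Members were taken by gene symbol. They are the collagen chains, the laminin chains, the small leucine-rich proteoglycans, versican, the elastic fibre proteins, the adhesive and matricellular proteins, the nidogens, perlecan, the surface protein THY1, and enzymes that modify or cross-link collagen. The array holds 154 probes for 44 such genes, out of 43639 probes for 28099 genes or accessions in all. The RefSeq table of the bovine ARS-UCD2.0 assembly lists 88 genes that fit the same names, and the other 44 of them had no probe matched through an accession and were not analysed here, among them COL5A1, COL6A3, COL7A1, COL4A2, LAMA3, FBN2, TNC and HSPG2. Both animals were females of the Korean breed HanWoo aged 30 months, each taken as representative of its colour. They differed in the colour of the nose, which the labels give as Yellow for the light muzzle and Black for the dark one. Each RNA came from the front part of 1 muzzle and was read on 1 single-colour array of the same slide, so every difference below is a difference between 2 animals with no replicate check and no test. Such a piece is mixed, as markers of epidermis, gland, vessels and muscle were all measured in both cows, and in it fewer cells of a type and less RNA per cell cannot be told apart.

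The matrix of the dermis is built mostly by fibroblasts. They secrete procollagen chains that assemble in threes into a triple helix, after prolyl and lysyl hydroxylases have modified the chains in the endoplasmic reticulum. Types I and III collagen form the fibrils that carry tension in skin, small proteoglycans such as decorin bind those fibrils and set their spacing, and lysyl oxidases cross-link them. Basement membranes are a separate sheet of type IV collagen, laminin, nidogen and perlecan under epithelia and around vessels, nerves and muscle fibres. Elastic fibres are made of elastin on a scaffold of fibrillin and fibulins, and matricellular proteins such as thrombospondin 1 and periostin bind cells and matrix without carrying load.

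The level of a probe is the log2 of its background-subtracted signal relative to the 75th percentile of the array, so that a level of 0 is the 75th percentile. That percentile was an intensity of 1144 on the light-muzzle array and 1137 on the dark-muzzle array, and 78.8% and 81.9% of the noncontrol spots were well above background. Log2 ratios are dark-muzzle levels less light-muzzle levels, and a gene's ratio averages its probes measured (well above background) in both cows. Where a pair of levels is given, the light-muzzle cow comes first. Levels of different probes are not read as amounts of different transcripts, because probes differ in how strongly they bind. They serve to call probes bright or dim. Summed levels given for some lists add all probes, also those not well above background, so strong probes weigh most. The only error that the arrays give is technical. Probes spotted at least 4 times had a median SD of 0.049 in the log2 ratio between spots, and different probes of a gene had a median SD of 0.18 over 7661 genes and 0.26 over the 33 matrix genes with at least 2 measured probes. The SDs below are over the probes of a gene. They do not measure the spread between cows. The 8 spike-in control transcripts measured on both arrays had log2 ratios from -0.38 to 0.0063. The lowest of these is about as far below 0 as the median of the matrix genes given below.

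Matrix genes were detected in both cows. Of the 154 probes, 144 were well above background on both arrays, 4 on the dark-muzzle array only, 2 on the light-muzzle array only and 4 on neither, and none was saturated. All of the genes except OMD had at least 1 probe measured in both cows, including DCN, LUM, COL1A1, COL1A2 and COL3A1, which mark fibroblasts. Most matrix genes were lower in the dark muzzle. Of the 44, 34 lay within 2-fold in either direction, as did 19227 of all 23161 genes with a ratio. The log2 ratio was below 0 for 29 of the 44 genes (65.9%), against 48.8% of all 23161 genes with a ratio, and above 0 for 15 (34.1%), against 51.2%. Their median was -0.37, against 0.017 over all genes and 0.065 over the 8914 genes that carried a RefSeq symbol. At a threshold of 2-fold, 6 matrix genes had a lower value in the dark muzzle (13.6%), where 7.64% of all genes passed, and 4 were higher (9.09%), where 9.34% of all genes passed. The share of higher genes was thus near that of all genes, and the genes that passed were COL4A1, FBN1, OGN and OMD. OMD passed on a lower bound, from 1 probe seen in the dark-muzzle cow only. With only probes measured in both cows 3 genes were higher, where 8.02% of all genes passed. The 6 lower genes were FMOD, THBS1, VCAN, POSTN, COL11A1 and P4HA2. Of the 150 matrix probes with a ratio, 12 (8%) were at least 2-fold higher and 23 (15.3%) lower, where 9.76% and 7.17% of all probes with a ratio passed. Short of 2-fold on the low side, 12 genes (27.3%) had a ratio between -1 and -0.5, a range that held 11.1% of all genes.

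**Figure D1:**
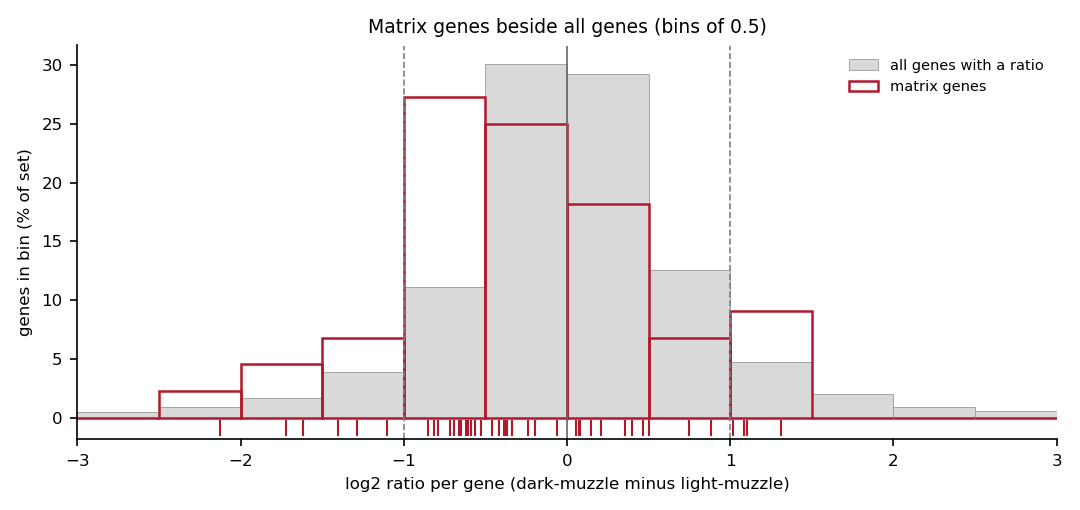
Share of genes in each bin of 0.5 of the log2 ratio, dark-muzzle minus light-muzzle, for the 44 matrix genes (red outline) and for all 23161 genes with a ratio (grey bars). Red ticks under the axis are the single matrix genes, and dashed lines mark 2-fold. The red outline exceeds the grey bars in each bin from -2.5 to -0.5 and in the bin from 1 to 1.5. Between -1 and -0.5 it holds 27.3% of the matrix genes against 11.1% of all genes. Between 1 and 1.5 it holds 9.09% against 4.74%. Ratios beyond 3 in either direction, which no matrix gene reached, are not drawn.

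Fibrillar collagens of skin were lower in the dark muzzle on most of their probes. COL1A1 and COL1A2 encode the chains of type I collagen. COL1A2 had mean levels of 2.83 and 2.19 and a ratio of -0.65 (SD 0.28, 6 probes), and all 6 probes were lower. COL1A1 had levels of 1.72 and 1.03 and a ratio of -0.69, with an SD of 0.80 over 5 probes. Its probes did not move together. The ratios of COL1A1 probes were -1.29, -1.25, -1.14, -0.35 and 0.56, and the value above 0 belonged to the dimmest of the 5. With the brightest probe alone COL1A1 was 2-fold lower, at -1.29, and with the median of the probes it was at -1.14. COL3A1, the type III chain that shares fibrils with type I, had levels of 3.98 and 3.56 and a ratio of -0.42 (SD 0.29, 10 probes). Of its probes, 9 lay between -0.74 and -0.41 and the remaining one at 0.35.

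The other matched fibrillar chains are those of cartilage, and all of their matched probes were dim. COL11A1 had levels of -3.84 and -5.12. Its mean ratio was -1.29 with an SD of 1.24 over the 4 of 8 probes measured in both cows, 3 of which were at -2.38, -1.83 and -1.40. The fourth, at 0.47, was higher in the dark-muzzle cow, and a further probe was seen in the light-muzzle cow only and at least 2-fold lower, with a bound of -1.21. The direction of COL11A1 thus rests on which probe is read, and the value of its brightest probe was the one above 0. The gene was at -0.47 under normexp background correction and -0.68 without a filter on dim probes, both short of 2-fold. As the median over probes it was at -1.62. COL2A1 had levels of -3.90 and -3.83 and a mean ratio of 0.073, its probes lying at -0.96, -0.28 and 1.46, with a further probe seen in the light-muzzle cow only (bound -1.29). COL11A2 had 1 measured probe at -0.20 and another seen in the dark-muzzle cow only (bound 0.78). Neither gene had an order that its probes shared. Markers of cartilage cells were partly undetected. ACAN and CNMD had no probe well above background, HAPLN1 was seen in the light-muzzle cow only, and of the 5 genes of that list with a ratio 4 were below 0 and 2 at least 2-fold lower. Their median was -0.99, or -0.69 over the 4 measured in both cows, which were COMP, MATN1, EPYC and CHAD. The summed level of all probes of the list, with 1 standing for the 75th percentile of an array, was 1.48 and 0.959. Its part in the values of COL2A1, COL11A1 and COL11A2 was not tested.

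**Figure D2:**
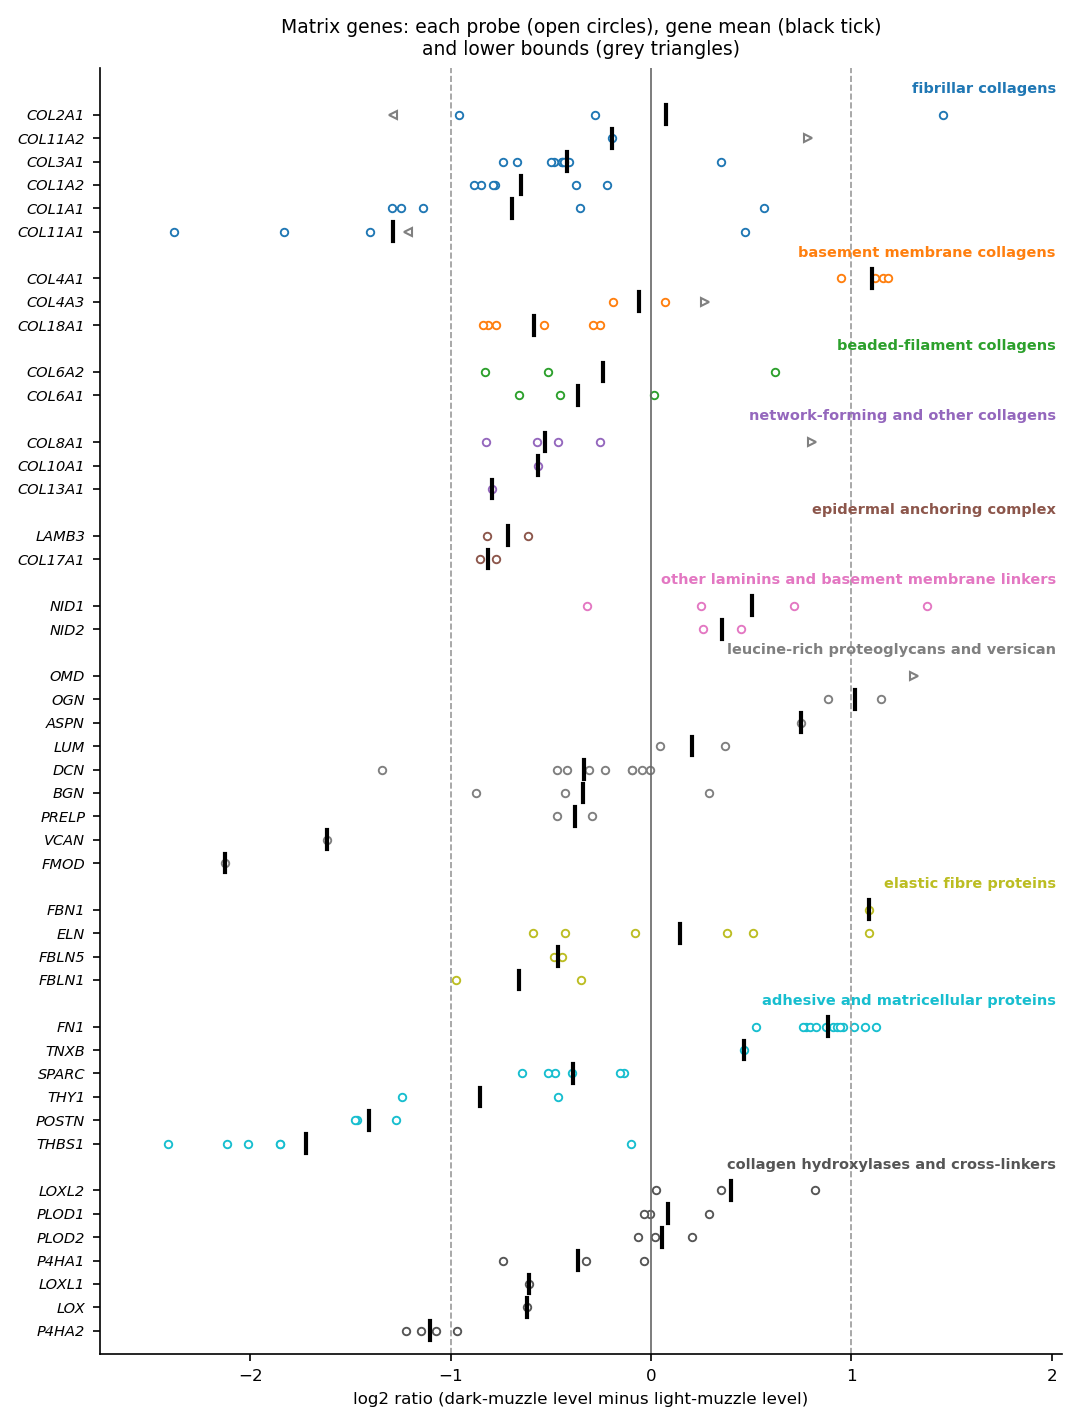
Log2 ratio, dark-muzzle minus light-muzzle, of every probe of the 44 matrix genes, ordered by role. Open circles are probes measured on both arrays, black ticks their mean, and grey triangles probes seen on 1 array only, drawn at their lower bound and pointing away from 0. Dashed lines mark 2-fold. The 13 probes of FN1 lie together between 0.52 and 1.12, whereas those of COL11A1, COL2A1 and ELN spread to both sides of 0.

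Collagens of the basement membrane moved apart. COL4A1 encodes a chain of type IV collagen, the network of every basement membrane, and was higher in the dark-muzzle cow. Its levels were -0.99 and 0.11 and its ratio was 1.10 (2.14-fold; SD 0.11, 4 probes). The 4 probes lay between 0.95 and 1.18, and COL4A1 was the only 1 of the 15 matched collagen chains at least 2-fold higher there. Under normexp background correction its ratio was 0.94. COL18A1, whose protein carries the fragment endostatin, was lower instead, at levels of 0.83 and 0.25 and a ratio of -0.59 (SD 0.26, 6 probes). All 6 of its probes were below 0, from -0.84 to -0.26. COL4A3, a type IV chain known best from kidney, was dim in both cows and had a ratio of -0.060 from 2 probes on either side of 0, with a further one seen in the dark-muzzle cow only (bound 0.27).

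Nidogens link the laminin and type IV collagen networks, and both were higher in the dark-muzzle cow by less than 2-fold. NID2 had levels of -0.90 and -0.54 and a ratio of 0.35 (SD 0.14, 2 probes). NID1 had levels of -2.54 and -2.04 and a ratio of 0.51, but its 4 measured probes ran from -0.32 to 1.37. Only NID2 had probes of a single sign. Markers of endothelium, which lies on such a membrane, were higher alongside them. All 9 endothelial markers with a ratio were above 0 and 3 of them at least 2-fold higher, with a median of 0.75, a lowest value of 0.26 for KDR and a highest of 1.33 for CLDN5. Their summed level was 29.5 and 59.2. Skeletal muscle fibres carry a basement membrane too, and 15 of 15 measured muscle markers passed 2-fold upward, with a median of 3.05 and a summed level of 745 and 4630. Every listed muscle and endothelial marker on the array was measured in both cows, and the part of either cell type in the values of COL4A1, NID1 and NID2 was not tested.

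COL17A1 and LAMB3, the 2 matched genes of the 5 listed for the anchoring complex of the epidermis, were lower in the dark muzzle on all of their probes, and the other 3 genes were not analysed here. COL17A1 is the transmembrane collagen of hemidesmosomes, and LAMB3 is a laminin chain of the same adhesion site, and both are made by basal keratinocytes and not by fibroblasts. COL17A1 had levels of 2.22 and 1.41 and a ratio of -0.81 (SD 0.058, 2 probes), and LAMB3 had levels of 1.09 and 0.38 and a ratio of -0.72 (SD 0.14, 2 probes). The 4 probes lay between -0.85 and -0.61, each short of 2-fold. Among 7 measured markers of keratinocytes, the basal keratins KRT5 (-0.52) and KRT14 (-0.41) were also lower, while KRT10 (1.57) and IVL (1.26), which belong to the layers above, were at least 2-fold higher. The 2 probes of KRT14 were at -0.76 and -0.055, and KRT10 had 1 probe. The remaining keratinocyte markers were within 2-fold, DSG1 at 0.25, SFN at 0.35 and DSC3 at -0.18. The median of the keratinocyte list was 0.25 and its summed level was 1009 and 1256. The part of the epidermal layers in the values of COL17A1 and LAMB3 was not tested.

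The remaining collagen chains were lower in the dark-muzzle cow without reaching 2-fold. COL6A1 and COL6A2 form the beaded filaments of type VI collagen together with a chain that was not analysed here. COL6A1 had levels of 0.92 and 0.55 and a ratio of -0.37 (SD 0.35, 3 probes), and COL6A2 had levels of -1.03 and -1.27 and a ratio of -0.24 (SD 0.76, 3 probes). For both genes 2 probes were below 0 and 1 above, so neither had a direction that all probes shared. COL8A1, a network-forming chain found around vessels, had levels of -2.60 and -3.12 and a ratio of -0.53, with 4 measured probes below 0 and a further one seen in the dark-muzzle cow only (bound 0.80). COL13A1, a transmembrane collagen, had 1 probe with levels of -1.38 and -2.17 and a ratio of -0.79, and COL10A1, the chain of hypertrophic cartilage, 1 probe at -0.56. Over the 15 collagen chains 13 were below 0, and their median log2 ratio was -0.53.

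Small leucine-rich proteoglycans differed most among themselves. Fibromodulin (FMOD), which binds collagen fibrils and guides their growth, had the lowest ratio of all 44 genes. Its single probe had levels of 3.29 and 1.17, a ratio of -2.13 and a 4.36-fold difference. Versican (VCAN), a large proteoglycan that binds hyaluronan, also had a single probe. Its levels were -1.45 and -3.07, and its ratio of -1.62 was a 3.06-fold difference. Both values therefore lack a check by a further probe. Decorin (DCN), the main proteoglycan of dermal fibrils, had levels of 3.49 and 3.16 and a ratio of -0.33 (SD 0.41, 9 probes). All 9 were below 0, but 8 of them lay between -0.47 and -0.0046 and the remaining one at -1.34. Biglycan (BGN) had levels of 1.22 and 0.89 and a ratio of -0.34, its probes lying at -0.87, -0.43 and 0.29, and PRELP one of -0.38 from 2 probes. Lumican (LUM) had levels of 0.77 and 0.98 and a ratio of 0.21, with both probes above 0.

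Osteoglycin, osteomodulin and asporin were higher in the dark-muzzle cow. Osteoglycin (OGN) had levels of -1.44 and -0.42 and a ratio of 1.02, with probes at 0.88 and 1.15. Its mean lay at the threshold and was short of it at 0.99 under a shift to the 50th percentile and at 0.97 under normexp background correction. Asporin (ASPN) had 1 probe with levels of 0.15 and 0.90 and a ratio of 0.75. Osteomodulin (OMD) was detected in the dark muzzle alone, at a level of -4.47 against -7.82 in the light one, where it was not well above background, and it was at least 2.48-fold higher. Probes well above background reached down to -5.78 on the light-muzzle array, the level the bound is taken against, and -5.81 on the dark-muzzle array. The bound of 1.31 was 0.98 under loess normalization and 0.62 under normexp. In the order of gene starts in the ARS-UCD2.0 table OGN, OMD and ASPN follow each other with no coding gene between them. The genes before and after in that order, CENPP and ECM2, which are no members, were both at 0.45. CENPP was dim, at levels of -3.96 and -3.51. An order of starts does not show whether genes overlap. Of the other proteoglycans, 4 lie in pairs. DCN (-0.33) and LUM (0.21) are next to each other and differ in sign, and the genes that flank them did too, KERA at -0.30 and BTG1 at 0.28. FMOD (-2.13) and PRELP (-0.38) are also next to each other and were both lower, with OPTC on one side at -0.99 and BTG2 on the other not analysed here. Among the collagens, COL18A1 (-0.59), COL6A1 (-0.37) and COL6A2 (-0.24) also lie close together and had ratios below 0. So did SLC19A1 (-0.15) and PCBP3 (-1.06), between COL18A1 and COL6A1, and POFUT2 (-0.49), on the far side of COL18A1. LOC132345988 and FTCD, also there, were not analysed here. These runs were looked up after the ratios had been seen.

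**Figure D3:**
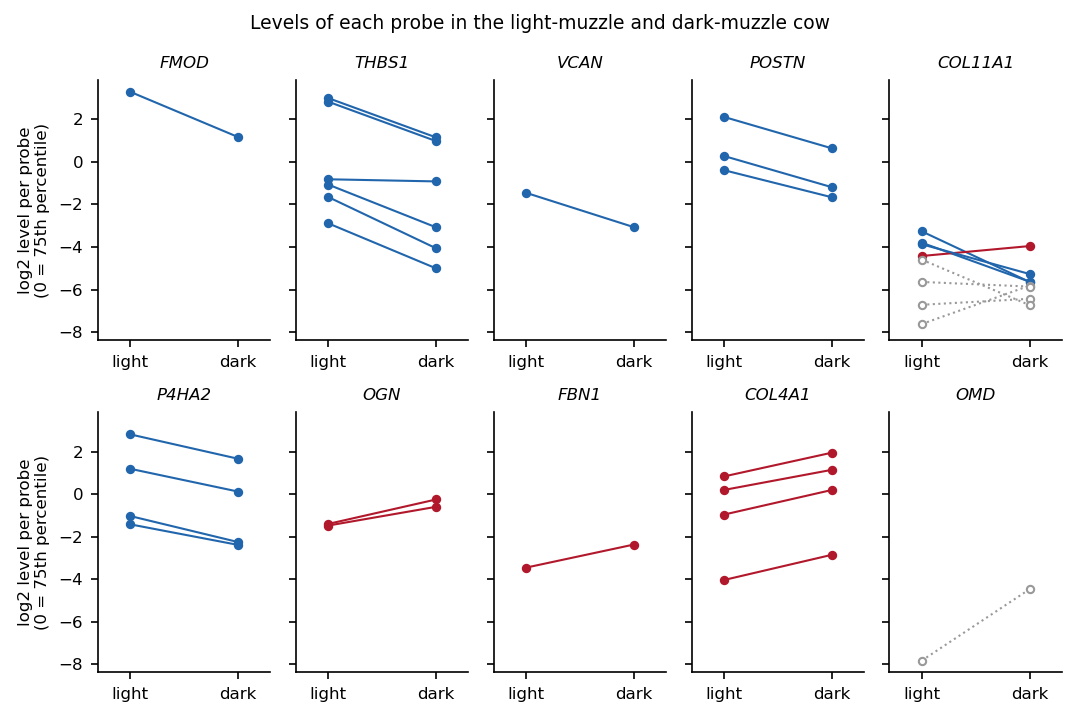
Log2 level of each probe in the light-muzzle and the dark-muzzle cow for the 10 matrix genes at least 2-fold different, with 0 at the 75th percentile of the array. Blue lines are probes lower and red lines probes higher in the dark-muzzle cow, and dotted grey lines with open points are probes not well above background on at least 1 array. Lines of POSTN, P4HA2 and COL4A1 run parallel, while 1 line of THBS1 is nearly flat and 1 solid line of COL11A1 runs upward. The height of different probes is not comparable.

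Adhesive and matricellular proteins were split between lower and higher genes. Thrombospondin 1 (THBS1), which binds cells and matrix and activates TGF-beta, had levels of -0.097 and -1.82. Its ratio was -1.72 (3.30-fold; SD 0.82, 6 probes), with 5 probes between -2.41 and -1.85 and 1 at -0.10. As the median over probes it was -1.93. Periostin (POSTN), a protein of growing and healing matrix, had levels of 0.67 and -0.74 and a ratio of -1.41 (2.65-fold; SD 0.11, 3 probes). Its 3 probes were at -1.48, -1.47 and -1.27 and lay on one side of 2-fold. THY1, a glycoprotein on the surface of fibroblasts and also of nerve and immune cells, had a ratio of -0.85 from a bright probe at -1.24 and a dim one at -0.46. SPARC, a collagen-binding protein, had levels of 3.32 and 2.94 and a ratio of -0.39 (SD 0.21, 6 probes), and all 6 probes were lower.

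Fibronectin was higher in the dark muzzle on every probe. Fibronectin (FN1) is an adhesive protein through which cells attach to the matrix. Its levels were -0.39 and 0.49, and its ratio was 0.88 (1.84-fold; SD 0.16, 13 probes). The 13 probes ran from 0.52 to 1.12, and 3 of them reached 2-fold. The mean of its 6 bright probes was 0.95 and that of its 7 dimmer probes 0.83. Tenascin X (TNXB), a matrix protein of dermis and muscle sheaths, had 1 probe at 0.46.

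Elastic fibre genes did not share a direction. Fibrillin 1 (FBN1), the protein of microfibrils, had 1 probe with levels of -3.45 and -2.37 and a ratio of 1.09, a 2.12-fold difference, which became 0.82 under normexp background correction. Fibulin 1 (FBLN1) had levels of -0.33 and -0.99 and a ratio of -0.66, its probes lying at -0.97 and -0.35. Fibulin 5 (FBLN5), needed for the assembly of elastic fibres, had a ratio of -0.46 (SD 0.029, 2 probes). Both fibulins were thus lower on all of their probes. Elastin (ELN) had levels of -3.32 and -3.17 and a mean ratio of 0.15 with an SD of 0.63 over 6 probes, of which 3 were above and 3 below 0. Its brightest probe was at -0.43 and the highest ratio, 1.09, came from a dim one, so the difference in elastin was within the spread of its probes.

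Enzymes of collagen were mostly lower or close to 0. P4HA2 encodes a catalytic subunit of prolyl 4-hydroxylase, whose product hydroxyproline stabilizes the triple helix. It had levels of 0.39 and -0.71 and a ratio of -1.10 (2.15-fold; SD 0.11, 4 probes). Its 4 probes lay between -1.22 and -0.97, and under normexp background correction the gene was at -0.98. P4HA1, another catalytic subunit, was at -0.36 (SD 0.35, 3 probes), all 3 below 0. Lysyl oxidase (LOX) had 1 probe with levels of 0.55 and -0.067 and a ratio of -0.62, and LOXL1 1 probe at -0.61. LOXL2 had levels of -0.40 and -0.0016 and a ratio of 0.40 (SD 0.40), its 3 probes running from 0.025 to 0.82. The lysyl hydroxylases PLOD1 (0.083; SD 0.18, 3 probes) and PLOD2 (levels -4.01 and -3.95, ratio 0.053; SD 0.14, 3 probes) differed by less than the spread of their probes.

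Related genes that process collagen were also mostly below 0. Of 13 measured genes for folding, trimming and cross-linking collagen, 10 were below 0 and 0 reached 2-fold in either direction, with a median of -0.38. The lowest was FKBP14 (levels -1.48 and -2.12, ratio -0.64), a peptidyl-prolyl isomerase of the endoplasmic reticulum, and the highest ADAMTS2 (levels -1.95 and -1.86, ratio 0.091), which trims procollagen. The collagen chaperone SERPINH1 had levels of 0.34 and 0.12 and a ratio of -0.22 (3 probes). Among 24 further matrix and fibroblast genes 6 were at least 2-fold lower and 0 at least 2-fold higher, where 7.64% and 9.34% of all genes passed. The summed level of the list was 516 and 613, with VIM (0.34), MGP (0.56) and IGFBP7 (0.55) above 0. The 6 lower genes were PI16, CCN2, SFRP2, LTBP2, CTHRC1 and FAP. PI16, a marker of a fibroblast population around vessels, had 1 probe with levels of 2.21 and -0.80 and a ratio of -3.00. CCN2, a matricellular growth regulator, was at -1.29, and the highest of the list was the microfibril gene MFAP5 (levels 1.57 and 2.51, ratio 0.94; 3 probes). The median of these 24 genes was -0.12, nearer to 0 than that of the members, since 11 of them were above 0. Of 10 measured receptors for collagen and laminin 1 was at least 2-fold lower, dystroglycan (DAG1), whose probe was dim with levels of -4.10 and -5.15 and a ratio of -1.05. The highest was ITGB1, with levels of -0.89 and -0.41 and a ratio of 0.48. The lists were not tested against each other.

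**Figure D4:**
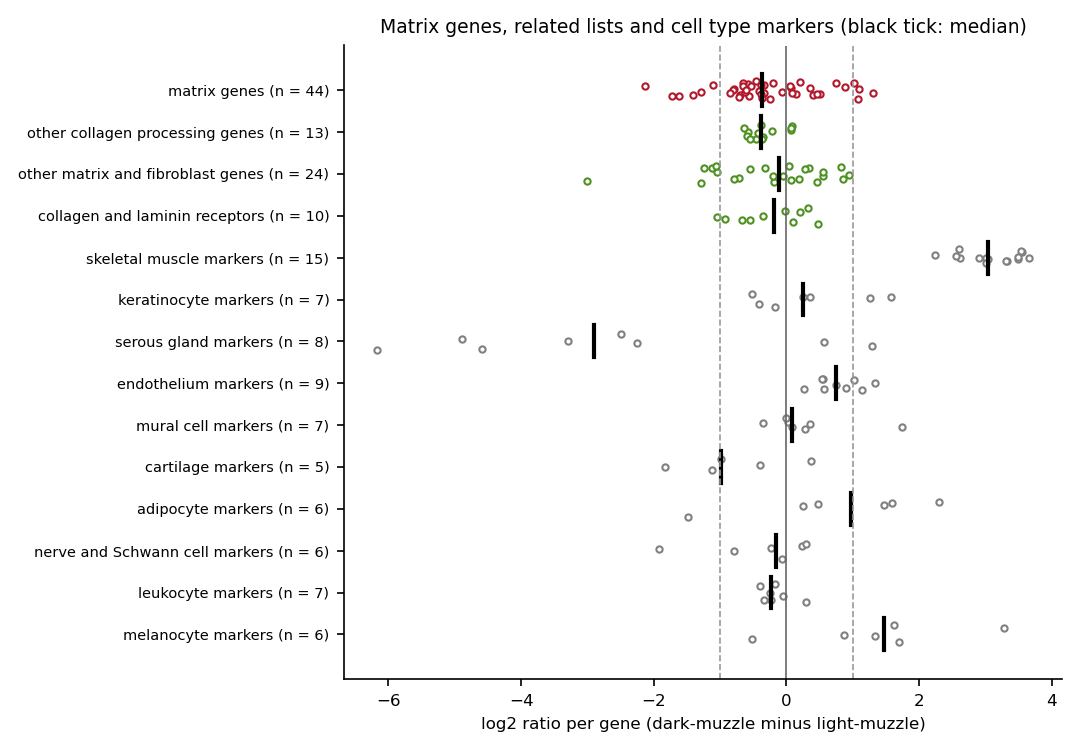
Log2 ratio per gene, dark-muzzle minus light-muzzle, of the 44 matrix genes (red), of 3 lists of related genes (green) and of markers of 10 other cell types (grey), each with its number of genes. Black ticks are medians and dashed lines mark 2-fold; points are spread vertically for legibility. The matrix genes have a median of -0.37, skeletal muscle markers 3.05 and serous gland markers -2.90.

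Markers of gland and muscle differed most between the pieces among the marker lists. The 8 measured serous gland markers had a median of -2.90, with 6 at least 2-fold lower, and a summed level of 568 and 37.8. The other 2 lay above 0, BPIFA1 at 1.29 and LPO at 0.57. The muscle markers were higher, as given above. Medians were 1.48 for melanocyte and 0.98 for adipocyte markers, or 1.34 and 0.48 over the genes measured in both cows. They were 0.086 for mural cell, -0.15 for nerve and Schwann cell and -0.24 for leukocyte markers. The part of these cell types in the matrix values was not tested.

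Bright probes of the matrix genes had lower ratios than dim ones. Of the 144 probes measured in both cows, 68 had a mean level at or above the 75th percentile, and 52 of these were below 0, with a median ratio of -0.45. Of the 76 dimmer probes 46 were below 0, with a median of -0.24. Over all probes of the array the same split gave -0.019 and 0.013. Of 19 matrix genes with both bright and dimmer probes, the bright ones had the lower mean ratio in 16. The chains COL1A2 and COL18A1 show this. The 4 bright probes of COL1A2 had a mean of -0.82 and its dimmer 2 a mean of -0.30, and the means were -0.81 over 3 bright and -0.36 over 3 dimmer probes of COL18A1. With bright probes alone, which 26 of the genes have, COL1A1 was at -1.01 and THY1 at -1.24, both then at least 2-fold lower. P4HA2 was at -1.11 on its bright and -1.10 on its dimmer probes, and COL4A1 at 1.03 and 1.17. Both are among the 16, as are LOXL2 (0.19 and 0.82) and LUM (0.046 and 0.37). COL4A1, LOXL2 and LUM were higher in the dark-muzzle cow, so their bright probes showed the smaller difference. A count of this kind over all genes is not given here. Across all matrix genes, 21 of 33 with at least 2 measured probes had them all on one side of 0, and 12 had probes on both sides.

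**Figure D5:**
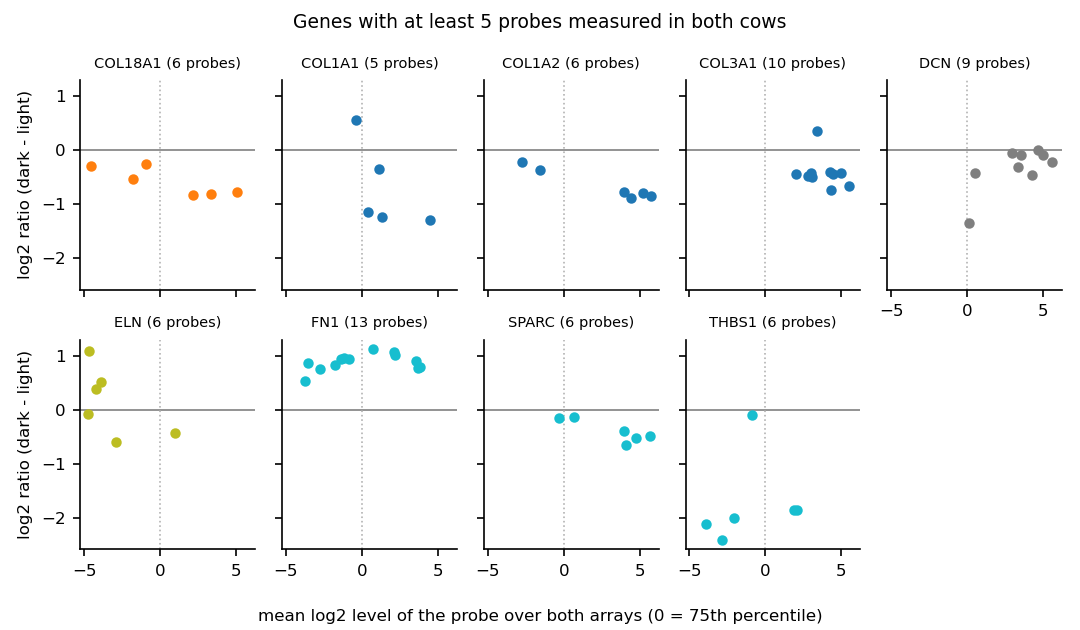
Log2 ratio of each probe, dark-muzzle minus light-muzzle, against its mean log2 level over both arrays for the 9 matrix genes with at least 5 probes measured in both cows. The solid line is a ratio of 0 and the dotted line the 75th percentile of the array. Probes of COL18A1 and COL1A2 lie lower where they are brighter, those of FN1 stay between 0.52 and 1.12 at every level, and 1 probe of THBS1 stands apart at -0.10.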

How the data were processed

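The authors hybridised RNA from 1 muzzle per group to Agilent bovine arrays and deposited scanner tables from Agilent Feature Extraction (version 10.7.3.1), in which the processed signal is a background-subtracted and detrended intensity. They also deposited a table of log2 values made in GeneSpring, used as an alternative. Its scale and centring were read from the scanner files: 99.97% of its values lay within 0.01 of the levels computed here, namely the log2 signal less the 75th percentile of its array.

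Control spots and 21 outlier spots were removed before repeated spots were averaged per probe. Accessions gave 20587 probes (47.2%) a RefSeq symbol (ARS-UCD2.0, names and gene order only). Probes seen on 1 array only got a lower bound, against the dim probe's own level or the lowest level well above background, whichever was higher. A gene without a probe measured on both arrays took its largest bound. All members could be named. Both levels were given for genes at least 2-fold different, for the highest and lowest of a role and for a fixed set of well-known matrix genes, and for the highest and lowest gene of other lists. A few more were named after their values were seen. The members and lists were chosen with earlier results of these data known. Neither a test nor a protein sequence was used, and the only depth measure of an array is its signal over background.

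Alternatives are given in the closing section. Normexp used median pixel signals. Quantile, loess and normexp values came from limma 3.58.1 in R 4.3.3, the rest from Python 3.11.15 with pandas 2.3.3 and numpy 2.4.6. Gene averaging was run on simulated data in which every probe of a changed gene had the same shift. That setting does not cover genes whose probes disagree, as many here do.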

Additional observations from a re-analysis of the deposited data

How the results depend on the processing

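The median over the matrix genes stayed below 0 under all 13 alternatives tried on it, from -0.53 to -0.32. Under the 12 that give gene values 37 of the 44 genes kept their sign, and COL11A1, COL11A2, COL2A1, COL4A3, ELN, PLOD1 and PLOD2 did not. FMOD, THBS1, VCAN and POSTN were at least 2-fold lower in each of these that measured them (VCAN has no bright probe). The cause of the changes below was not tested, apart from those set by the threshold or the unit counted.

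The 4 genes at least 2-fold higher became 0 under normexp background correction (offset 50), 1 with only probes at or above the 75th percentile (added after the data were seen, which leaves 26 genes) and 0 at 3-fold, and counted by probes they were 12. They were 3 under loess normalization, under a shift to the 50th percentile and with only probes measured in both cows. Of all genes 8.0%, 9.1% and 8.0% passed there. The 6 lower genes became 16 at 1.5-fold, 3 at 3-fold and 23 counted by probes. Of all genes, 5.46% were at least 2-fold higher and 4.40% lower under normexp, where 4 matrix genes were lower. With only probes at or above the 75th percentile these shares of all genes were 8.25% and 6.94%. Shares of all genes at 1.5-fold and 3-fold are not given here. COL11A1 reversed to 0.47 when its brightest probe was used. The median of the basement membrane collagens, as reported -0.060, was -0.26 under quantile and -0.28 under loess normalization and 0.81 without a filter on dim probes. Under normexp the medians were -0.35 for network-forming and other collagens and -0.14 for the proteoglycans with versican. With the brightest probe of each gene they were -0.79 for network-forming and other collagens, -0.44 for elastic fibre proteins and -0.86 for adhesive and matricellular proteins. With bright probes only they were -0.82 for fibrillar collagens, -0.70 for elastic fibre and -0.84 for adhesive proteins. Counted by probes they were -0.35 for elastic fibre, -0.13 for adhesive proteins and -0.050 for the collagen enzymes. Quantile normalization moved the share of all genes at least 2-fold higher from 9.34% to 8.10%, and lower from 7.64% to 9.20%. No paired analysis was possible because each group has 1 array. Signal near background limits COL11A1, COL2A1, COL4A3 and OMD, and also other dim genes. Among those, COL11A2 was at 0.96 and COL8A1 at -0.22 without a filter on dim probes. Under normexp PRELP was at -0.14 and COL10A1 at -0.22.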
